A study of Schmidtea mediterranea with 89 samples.

Results

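Flat-plate culture of planarian stem cells was compared with uncultured cells in 9 libraries of the feeder experiment, out of 89 libraries in a series of 5 experiments. The libraries were taken by their labels. They comprised 3 from uncultured cells, 3 after 1 d on a flat plate and 3 after 3 d on a flat plate. The series was designed to compare culture conditions for cells labelled SiRNeoblasts of the freshwater flatworm Schmidtea mediterranea, and this experiment, number 4, also held feeder-layer cultures, which are not described here. All 9 libraries carried the WT genotype. The cultured cells were kept without feeder cells, at 22 °C and 5% CO2, in KnockOut DMEM with amino acids, vitamins, pyruvate, antibiotics and 20% heat-inactivated fetal bovine serum. The uncultured cells were lysed without that step and are the common starting point of both flat groups. The labels' protocols describe reverse transcription with a template-switching oligo, PCR amplification and Tn5 tagmentation. Whether replicates were separate cultures or separate animals is not said in the labels, so the p-values cover the spread among the deposited libraries alone, and that spread may be technical.

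Neoblasts are the dividing adult stem cells of planarians. They sit in the tissue between the organs, replace the cells of every tissue and drive regeneration, and they express piwi-family genes and genes of DNA replication. Removed from the animal they have been hard to keep dividing in culture. The deposited table lists identifiers that begin with SMED3 and no gene names, and the marker lists chosen for neoblasts, their progeny, differentiated tissues and stress matched 0 of them. The labelled cell type was therefore not checked against its markers, and no identifier is given a function here. In bulk libraries of this kind, fewer cells of a type and less RNA per cell cannot be told apart.

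The total count per library was 27362698, 42691160 and 28209192 in the uncultured libraries, 18688746, 20832175 and 20270524 after 1 d, and 25114116, 20212150 and 23560046 after 3 d. Every flat library was thus shallower than every uncultured one. Counts are of amplified fragments without molecular identifiers, so a floor in counts speaks of counting error alone. Of 36035 identifiers, 26107 passed the expression filter and were tested. They were split by their mean CPM (counts scaled to depth with edgeR and TMM, the trimmed mean of M values) over the 9 libraries into 11890 below 1 CPM, 7621 from 1 to 10 CPM and 6596 of 10 CPM or more. The floor of 3 counts lay between 0.0596 and 0.178 CPM.

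Flat culture went with more detected identifiers, not fewer, in spite of the lower depth. Brought to the depth of the shallowest of the 9 libraries, 21645, 21606 and 22201 identifiers had at least 1 count in the uncultured libraries. The flat libraries had 23163, 31911 and 24763 after 1 d, and 29800, 31526 and 25797 after 3 d. The flat and uncultured libraries did not overlap, while the flat libraries of both days did, and 3 flat libraries (replicate 2 at 1 d and replicates 1 and 2 at 3 d) stood above the other 6 libraries. The mean was 26612 ± 4658 after 1 d and 29041 ± 2939 after 3 d, against 21817 ± 333 in uncultured libraries (SD, n = 3 each). An exact two-sided permutation test gave p = 0.1 for each day, which is the smallest p that 3 libraries against 3 allow, and adjusted p = 0.188 by Benjamini-Hochberg over the 15 library comparisons. The flat 3 d libraries did not differ from the flat 1 d libraries beyond their spread (exact permutation p = 0.5, adjusted p = 0.682).

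The additional identifiers were thinly covered. With at least 5 counts required at the same depth, the flat 1 d libraries had 14922, 25829 and 15909 identifiers and the flat 3 d libraries 20895, 24777 and 16470, against 18351, 18379 and 18615 in the uncultured libraries. The groups then overlapped on both days, with exact permutation p = 1 after 1 d and p = 0.4 after 3 d. Replicate 2 at 1 d and replicates 1 and 2 at 3 d lay above all uncultured libraries, and the other 3 flat libraries lay below all of them. At the other end of the range, the flat libraries had fewer identifiers of 10 CPM or more in the library itself, with 6028, 5231 and 6148 after 1 d and 5853, 5345 and 6030 after 3 d, against 6638, 6914 and 6746 in uncultured libraries.

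**Figure D1:**
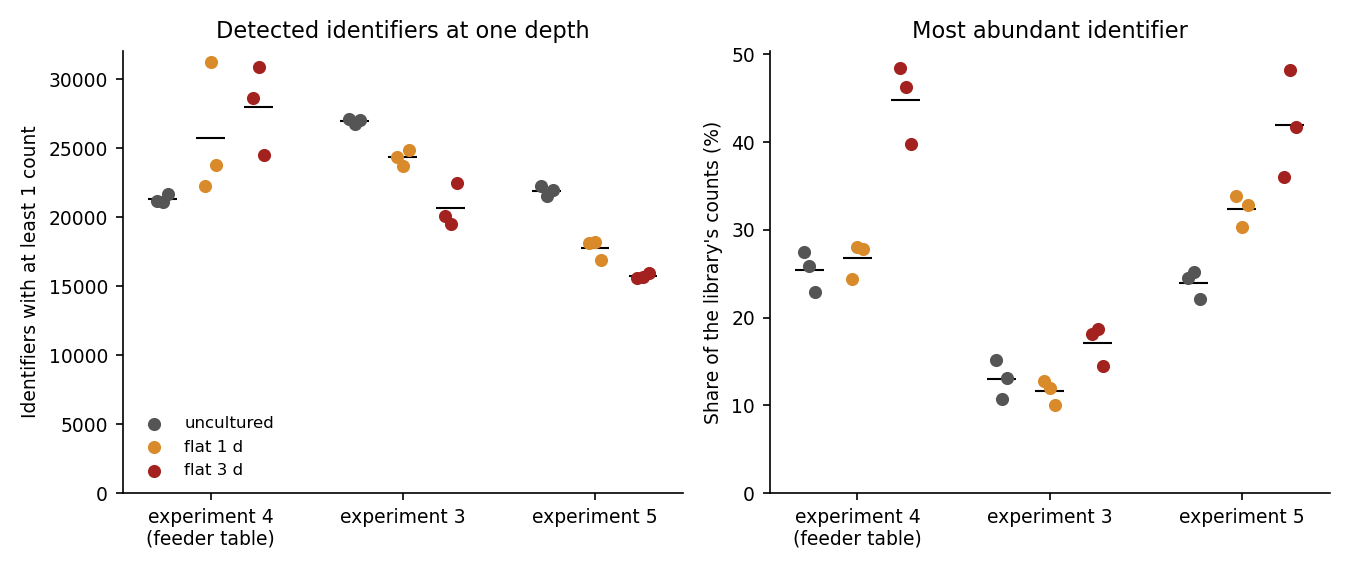
Left, identifiers with at least 1 count after each library was brought to a depth common to experiments 3, 4 and 5. Right, share of a library's counts (%) held by SMED30032887, the most abundant identifier by mean share over the 9 libraries of experiment 4. Each point is 1 library and each line the mean of 3; in experiment 4 the flat libraries lie above the uncultured ones on the left, between 22258 and 31264 after 1 d, while in experiments 3 and 5 they lie below.

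A set of 9441 identifiers had 0 counts in all 3 uncultured libraries. Of these, 1979 (21.0%) were detected in all 3 flat 1 d libraries, 2956 in 2 of them, 2683 in 1 and 1823 in none. After 3 d, 3323 (35.2%) were detected in all 3 libraries, 2929 in 2, 1612 in 1 and 1577 in none. Single libraries held 3413, 7069 and 4050 of them after 1 d and 6169, 6829 and 4441 after 3 d, so that the 3 libraries with high detection also held the most here. The median count of an identifier of this set where detected was 2, 7 and 3 after 1 d and 4, 6 and 3 after 3 d. Together the set held between 0.103% and 0.397% of the counts of a flat 1 d library and between 0.101% and 0.301% of those of a flat 3 d library. The opposite pattern was rarer. Of 18128 identifiers detected in all 3 uncultured libraries, 250 (1.38%) had 0 counts in all flat 1 d libraries and 170 (0.938%) in all flat 3 d libraries. Among the 6580 of these with 10 CPM or more, 1 was lost after 1 d and 0 after 3 d.

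The abundance classes differed in how far detection moved. Of the tested identifiers below 1 CPM, the share detected was 63.5%, 95.8% and 70.6% in the flat 1 d libraries and 90.7%, 95.0% and 75.9% in the flat 3 d libraries, against 51.6%, 52.4% and 54.5% in the uncultured libraries. The flat libraries lay above the uncultured ones without overlap on both days. The expression filter also admitted identifiers with 0 counts in all uncultured libraries, through cultured libraries alone, so it fixed part of this contrast. From 1 to 10 CPM the shares were 85.7%, 96.7% and 89.0% after 1 d and 96.8%, 97.3% and 92.3% after 3 d, against 96.4%, 95.3% and 96.5% uncultured, and the groups overlapped. In the highest class every one of the 9 libraries detected at least 99.2% of the class. The class from 1 to 10 CPM held a smaller share of the counts of flat libraries, with 2.46%, 3.44% and 2.66% after 1 d and 2.65%, 2.83% and 2.03% after 3 d, against 4.22%, 4.48% and 4.10% in uncultured libraries. That difference had exact permutation p = 0.1 on each day (adjusted p = 0.188), without overlap.

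One identifier, SMED30032887, dominated all 9 libraries and was the most abundant by mean share. It held 27.5%, 25.9% and 22.9% of the counts in the uncultured libraries, 24.4%, 28.1% and 27.8% after 1 d, and 48.5%, 46.3% and 39.8% after 3 d. The flat 1 d libraries overlapped with the uncultured ones, and the flat 3 d libraries lay above both other groups. Its log2 fold change at 3 d against uncultured was 1.10 (SE 0.17, adjusted p = 0.000109 by edgeR's quasi-likelihood test). At 1 d it was 0.28 (SE 0.16, adjusted p = 0.253). Between flat 3 d and flat 1 d the log2 difference was 0.83 (SE 0.17, adjusted p = 0.218), which did not pass the test although the libraries of the groups did not overlap. The 4 most abundant identifiers together held 47.4% ± 4.55 of the counts after 3 d and 31.5% ± 2.25 after 1 d, against 33.0% ± 0.701 uncultured (SD, n = 3 each). Counts taken by these identifiers are not left to the others, and the scaling below was therefore repeated without them.

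Replicates of flat culture resembled each other far less than uncultured replicates did, in every abundance class. At 10 CPM or more, Pearson's r of log2 CPM across the 6596 identifiers had a median of 0.565 (0.550 to 0.597) between flat 1 d libraries and 0.699 (0.692 to 0.724) between flat 3 d libraries, against 0.953 (0.922 to 0.960) between uncultured libraries. Pairs of a flat and an uncultured library had a median of 0.521 at 1 d and 0.546 at 3 d. In the middle class the medians within groups were 0.229 for flat 1 d and 0.372 for flat 3 d, against 0.830 for uncultured libraries. Below 1 CPM they were 0.291 and 0.307, against 0.605. In both lower classes the flat and uncultured libraries had medians between -0.0255 and 0.0645. These values describe pairs of libraries that share identifiers, differ in depth, and were split by a mean over the same libraries, which narrows the range of each class.

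**Figure D2:**
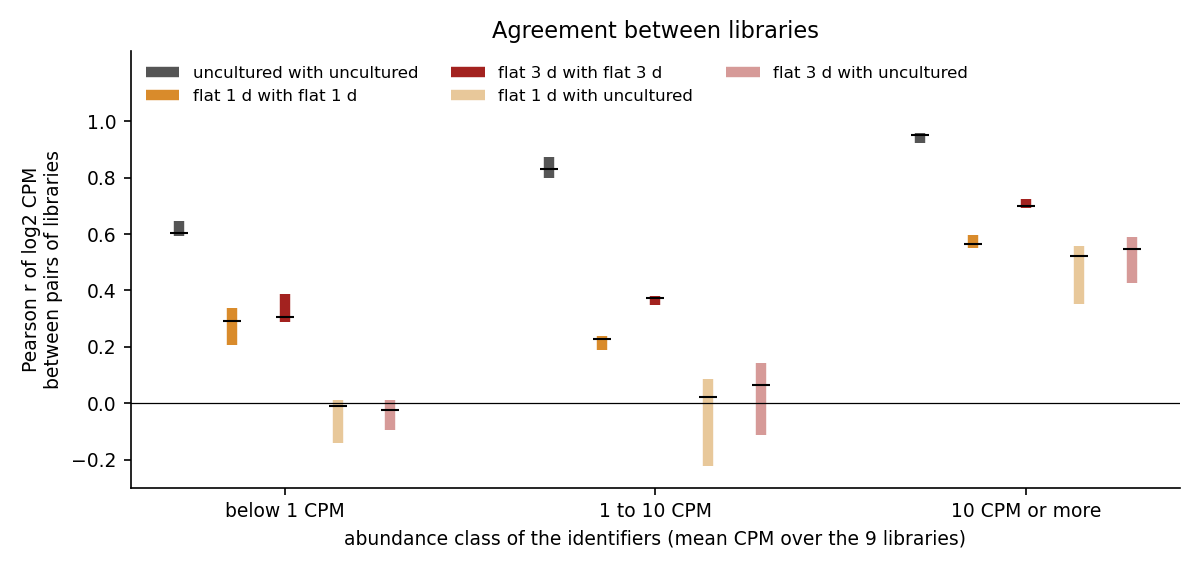
Pearson's r of log2 CPM (prior count 2) between pairs of libraries, by abundance class; bars span the lowest to the highest pair and ticks mark the median, over 3 pairs within a group and 9 pairs between groups. At 10 CPM or more the uncultured pairs lie between 0.922 and 0.960 and the flat 1 d pairs between 0.550 and 0.597.

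The same was seen in the spread of single identifiers. The median SD of log2 CPM over 3 libraries at 10 CPM or more was 1.08 in the flat 1 d group and 0.77 in the flat 3 d group, against 0.31 in the uncultured group. In the middle class it was 1.49 and 1.15, against 0.54. An SD above 1 was reached by 54.4% of identifiers of 10 CPM or more after 1 d and 36.6% after 3 d, against 2.32% uncultured. The median SE of a log2 fold change at 1 d against uncultured was accordingly 1.56 below 1 CPM, 1.44 from 1 to 10 CPM and 0.93 at 10 CPM or more. The smallest change called at 10 CPM or more was 0.98 on the log2 scale at 1 d and 0.99 at 3 d.

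After 1 d of flat culture more identifiers were called higher than lower, and of the 3 classes the one below 1 CPM had the largest share called. Of 26107 tested, 4352 (16.7%) were called against uncultured cells, 3532 higher and 820 lower, at an adjusted p below 0.05. Below 1 CPM, 2591 (21.8%) were called, 2416 higher and 175 lower. From 1 to 10 CPM, 1099 (14.4%) were called, 594 higher and 505 lower. At 10 CPM or more, 662 (10.0%) were called, 522 higher and 140 lower. The median log2 fold change of all tested identifiers of these classes was 1.49, -0.60 and 0.08, in the same order. The median of the lowest class was 1.35 where identifiers with 0 counts in a whole group were set to their bound from 3 counts.

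**Figure D3:**
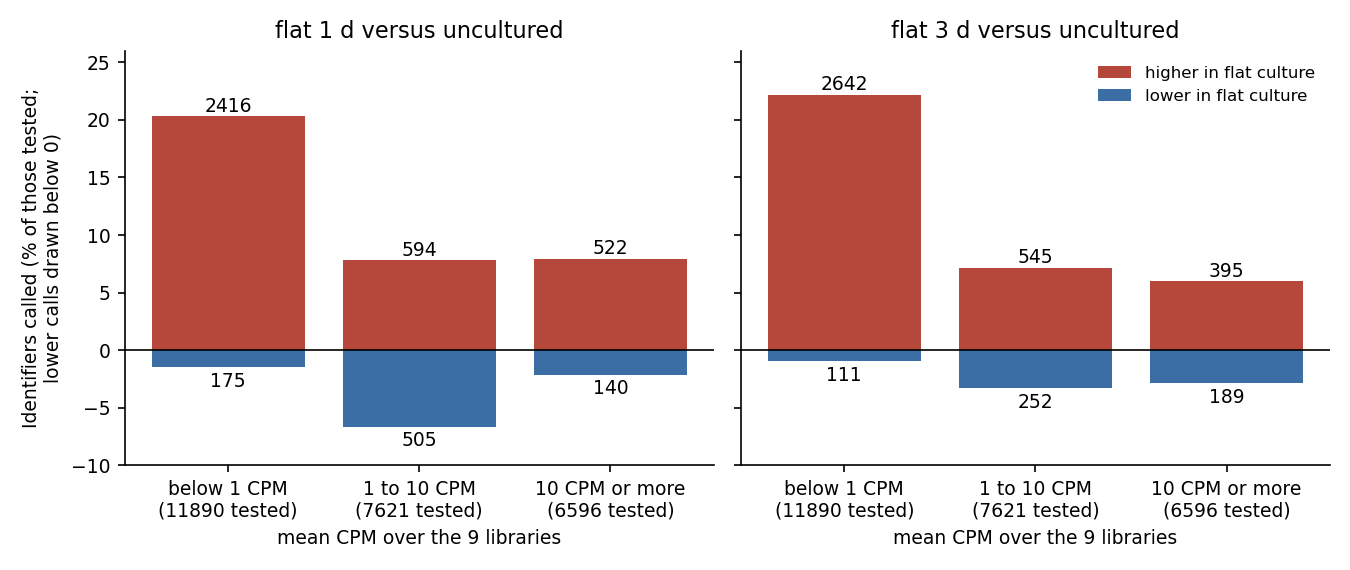
Identifiers called at an adjusted p below 0.05 as a percentage of those tested, by abundance class, with higher calls above the line, lower calls below it and counts printed on the bars. Below 1 CPM the calls are nearly all higher in flat culture, 2416 against 175 at 1 d and 2642 against 111 at 3 d.

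After 3 d the picture by class was alike in outline, and since both days were compared with the same 3 uncultured libraries, their values are given side by side only. Of 26107 tested, 4134 (15.8%) were called, 3582 higher and 552 lower. The calls below 1 CPM numbered 2753 (23.2%), 2642 higher and 111 lower. Those from 1 to 10 CPM numbered 797 (10.5%), 545 higher and 252 lower. Those of 10 CPM or more numbered 584 (8.85%), 395 higher and 189 lower. The medians of all tested identifiers were 1.78 below 1 CPM (1.65 at the bound), -0.57 from 1 to 10 CPM and -0.19 at 10 CPM or more.

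Most upward calls below 1 CPM were of identifiers with 0 counts in the uncultured libraries. Of the 2416 higher calls at 1 d, 2051 (84.9%) had 0 counts in all 3 uncultured libraries, and of the 2642 at 3 d, 2204 (83.4%) had. Such identifiers passed the expression filter through cultured libraries alone and could be called in no direction but higher, so the upward excess of this class is no measure of a general direction. The median level of the higher calls was low, with 0.386 CPM in flat 1 d libraries and 0.436 CPM in flat 3 d libraries, against 0 CPM in uncultured libraries in both cases. Only 1629 of the 2416 were detected in all 3 flat 1 d libraries, and 2293 of the 2642 in all 3 flat 3 d libraries. In the highest class, 2 higher calls on each day had 0 counts in all uncultured libraries.

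Calls below 1 CPM also depended most on which libraries were fitted. Without uncultured replicate 2, the deepest library, the calls below 1 CPM numbered 176 at 1 d and 216 at 3 d. Those of 10 CPM or more numbered 298 and 290. Without uncultured replicate 1 or 3 the calls below 1 CPM numbered 643 and 469 at 1 d and 717 and 619 at 3 d. Fitted on the 6 libraries compared alone, the class held 93 higher and 128 lower calls at 1 d, which turned the excess. At 3 d it held 450 higher and 172 lower. The filter was applied anew in these fits, which tested 17339 identifiers at 1 d and 18429 at 3 d. The set of identifiers tested thus differed too. All 21 libraries of the experiment were also thinned to the shallowest of them, 6775383 counts, which is below the equal depth used above. Only 17502 identifiers were then tested. The class held 519 higher and 53 lower calls at 1 d and 529 higher and 28 lower at 3 d. The calls made in every one of the leave-one-out fits were 129 higher and 6 lower below 1 CPM at 1 d, and 155 higher and 4 lower at 3 d. In the highest class they were 247 higher and 16 lower at 1 d, and 227 higher and 36 lower at 3 d.

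Fewer identifiers, above all of the lower classes, were called without the 3 flat libraries that had over 30000 detected identifiers at their own depth. With these left out together, a choice made after the data were seen, 1056 identifiers were called at 1 d (908 higher, 148 lower) and 490 at 3 d (477 higher, 13 lower). At 3 d, 137 of these were below 1 CPM, 103 from 1 to 10 CPM and 250 of 10 CPM or more, with 1 flat 3 d library left, which was assumed to vary like the other groups. Of the 2642 higher calls below 1 CPM at 3 d, 291 then had no positive log2 fold change. Identifiers with 0 counts in both groups were not set apart among these, so the 291 are not all shown to be reversals. Of the 395 at 10 CPM or more, 218 were called higher again and 0 took the opposite sign, and of the 189 lower calls there 13 were called again. Without flat 1 d replicate 2 alone, 1935 were called at 1 d, 437 of them at 10 CPM or more. Without flat 3 d replicate 2 alone, 2247 were called at 3 d, 360 of them at 10 CPM or more.

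Of the identifiers of 10 CPM or more most were not called, and those called had passed a test that favours large changes. The 522 higher calls of 10 CPM or more at 1 d had a median log2 fold change of 3.18 and a median level of 84.2 CPM in flat 1 d libraries, against 6.65 CPM in uncultured libraries. The 140 lower calls had a median of -3.25, with 6.84 CPM in flat 1 d libraries against 76.5 CPM in uncultured libraries. At 3 d the 395 higher calls had a median of 3.96, with 52.5 CPM against 2.82 CPM, and the 189 lower calls a median of -3.19, with 15.8 CPM against 146 CPM. Above 10 CPM the share called grew with abundance. Of 957 tested identifiers of 100 CPM or more, 24.1% were called at 1 d (185 higher, 46 lower) and 20.7% at 3 d (115 higher, 83 lower). Of 83 identifiers of 1000 CPM or more, 51.8% were called at 1 d (35 higher, 8 lower) and 36.1% at 3 d (19 higher, 11 lower). Here the median SE was 0.34 on both days, and 4 of the 35 higher and 2 of the 8 lower calls at 1 d changed more than 4-fold, as did 2 of the 19 higher and 5 of the 11 lower calls at 3 d.

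The medians of these sets by library were as follows, and they hide the spread of single identifiers given above. The 522 higher calls at 1 d had a median of 66.5, 99.3 and 56.5 CPM in the flat 1 d libraries, against 8.30, 5.19 and 5.89 CPM in the uncultured libraries. In the flat 3 d libraries the same identifiers had a median of 52.4, 73.3 and 45.9 CPM. The 140 lower calls at 1 d had a median of 7.14, 5.02 and 5.75 CPM after 1 d, against 71.5, 79.6 and 74.2 CPM uncultured, and of 27.5, 16.3 and 21.2 CPM after 3 d. The 189 lower calls at 3 d had a median of 16.9, 12.2 and 19.0 CPM after 3 d, against 135.5, 134.9 and 137.7 CPM uncultured, and of 45.7, 23.5 and 53.1 CPM after 1 d. The 395 higher calls at 3 d had a median of 47.8, 72.2 and 35.3 CPM after 3 d, against 3.79, 2.03 and 2.68 CPM uncultured, and of 27.6, 84.5 and 29.7 CPM after 1 d. Since both days share the uncultured libraries, which also took part in the choice, the values of the other day are no independent measure of a change.

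The split between higher and lower calls moved with the scaling. RLE size factors (relative log expression) raised the median log2 fold change of all tested identifiers by 0.31 at 1 d and 0.35 at 3 d, and leaving out the 4 most abundant identifiers raised it by 0.64 and 0.67. At 10 CPM or more at 3 d, 67.6% of calls were higher, against 80.4% with RLE (566 higher, 138 lower) and 88.3% without the 4 identifiers (602 higher, 80 lower). At 1 d 78.9% were higher, against 87.2% with RLE and 94.2% without the 4 identifiers (884 higher, 54 lower). From 1 to 10 CPM the share was 54.0% at 1 d, against 65.4% with RLE and 69.1% without the 4 identifiers, and 68.4% at 3 d, against 78.7% and 81.3%. Limma voom with sample weights turned the excess at 3 d, with 562 higher and 920 lower calls at 10 CPM or more. From 1 to 10 CPM, it did so on both days, with 658 higher and 1439 lower calls at 1 d and 942 higher and 1581 lower at 3 d. At 1 d the excess of that class also turned in the fit of only the 9 libraries (488 higher, 733 lower). So it did with only the 6 compared, at 1 d (270 higher, 478 lower) and at 3 d (659 higher, 678 lower). These fits applied the filter anew, with 20650 identifiers tested over the 9 libraries. Over the 6 compared, 17339 were tested at 1 d and 18429 at 3 d. Of the 189 lower calls of 10 CPM or more at 3 d, 138 were called again with RLE and 80 without the 4 identifiers, while of the 395 higher calls 395 and 394 were.

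The identifiers with the most extreme changes of 10 CPM or more, among calls that held in each leave-one-out fit and did not overlap between groups, were named by rule. SMED30003968 had 99.0, 20.4 and 1.42 CPM in the flat 1 d libraries and 0 counts in each uncultured library. Its mean of 40.3 CPM at 1 d was at least 1580-fold higher by the floor of 3 counts over the uncultured group. The edgeR adjusted p was 0.00174. This bound is for the mean and not for each library. In the flat 3 d libraries SMED30003968 had 10.2, 5.26 and 1.53 CPM. Their mean was at least 223-fold higher than uncultured (adjusted p = 0.00603 by edgeR). All 6 flat libraries lay above the uncultured ones, but at 1 d they spanned from 1.42 to 99.0 CPM. SMED30005897 had 105.9, 1.13 and 0.608 CPM in the flat 1 d libraries and 0 counts in each uncultured library. Its flat 1 d mean was at least 1410-fold higher by the same floor (adjusted p = 0.00189 by edgeR). Here replicate 1 alone carried the level and the class, since the flat 3 d libraries had 0.630, 0.877 and 0.407 CPM. Without flat 1 d replicate 1, SMED30003968 too would have a mean below 10 CPM over the libraries. SMED30004426, named at 3 d, was steadier across libraries. It had 21.6, 29.9 and 10.5 CPM in the flat 3 d libraries, against 0.296, 0 and 0.0298 CPM in the uncultured libraries, with a log2 fold change equal to 7.54 (SE 1.27, adjusted p = 0.000436 by edgeR). After 1 d it had 11.6, 37.3 and 11.8 CPM and a log2 fold change of 7.50 (adjusted p = 0.000487 by edgeR).

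Among those lower in flat culture, SMED30031540 had 0 counts in each flat 1 d library, against 10.4, 80.9 and 28.0 CPM in the uncultured libraries. By its uncultured mean against the floor, it was at least 849-fold lower at 1 d (adjusted p = 0.00414 by edgeR). Without uncultured replicate 2, its mean over the libraries would be below 10 CPM. In the flat 3 d libraries it had 0.0788, 0.395 and 6.10 CPM, which did not pass the test against uncultured cells (log2 fold change -4.18, SE 1.72, adjusted p = 0.0983). SMED30035881 had 0, 0.291 and 0.0506 CPM in the flat 1 d libraries, against 27.4, 37.8 and 29.2 CPM in the uncultured libraries, with a log2 fold change equal to -7.96 (SE 1.97, adjusted p = 0.0104 by edgeR). In the flat 3 d libraries it had 3.07, 24.1 and 1.07 CPM, all below the uncultured libraries, with a log2 difference of -1.74 (SE 1.48, adjusted p = 0.48). For both of these the flat 3 d libraries lay above all flat 1 d libraries, a difference that did not pass the edgeR test (adjusted p = 0.47 each).

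SMED30024204 had 0.315, 0.570 and 0.203 CPM in the flat 3 d libraries, against 158.8, 73.5 and 116.3 CPM in the uncultured libraries, with a log2 fold change equal to -8.30 (SE 1.87, adjusted p = 0.00589 by edgeR). After 1 d it had 0.238, 1.67 and 1.92 CPM (log2 fold change -6.49, SE 1.72, adjusted p = 0.0148). SMED30018614 had 0, 0.0439 and 0.102 CPM in the flat 3 d libraries, against 24.4, 48.0 and 29.3 CPM in the uncultured libraries, with a log2 fold change equal to -9.33 (SE 2.22, adjusted p = 0.00847 by edgeR). After 1 d it had 9.93, 1.78 and 0.709 CPM, between the other groups and overlapping neither. The log2 fold change was -3.03 (SE 1.64, adjusted p = 0.203 by edgeR). Without uncultured replicate 2, the mean of SMED30018614 over the libraries would be below 10 CPM. Of these 7 identifiers, 3 lost their call at 3 d in 1 of 20 alternatives, the one without the 3 flat libraries of high detection. The fits without one of the 6 libraries compared could not lose a call, since the rule required it there. The edgeR adjusted p was then 0.0567 for SMED30003968, 0.227 for SMED30018614 and 0.145 for SMED30024204, with log2 fold changes of 7.95, -8.25 and -9.09. In the other alternatives, DESeq2 and limma voom included, the adjusted p ran from 1.38e-06 to 0.0491, from 1.84e-06 to 0.0404 and from 4.02e-06 to 0.0276 for these identifiers in that order.

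**Figure D4:**
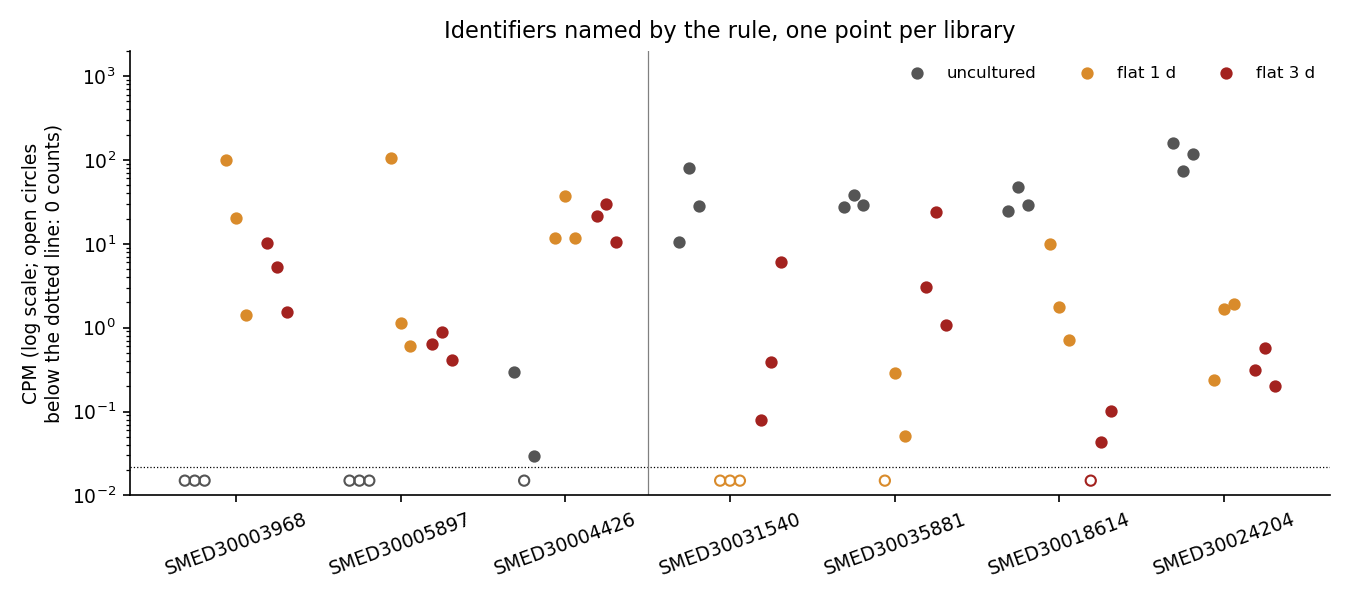
CPM (log scale) of the 7 identifiers named by rule in each of the 9 libraries, with the 3 higher in flat culture left of the grey line and the 4 lower ones right of it; open circles below the dotted line are libraries with 0 counts. SMED30005897 stands at 105.9 CPM in 1 flat 1 d library and at 1.13 CPM or below in every other, while SMED30004426 lies at 10.5 CPM or above in all 6 flat libraries.

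Between flat 3 d and flat 1 d, edgeR's quasi-likelihood test called 0 of 26107 identifiers (0%). An unadjusted p below 0.05 was reached by 2130, of which 1064 were higher and 1066 lower at 3 d. By class these were 256 higher and 92 lower below 1 CPM, 680 higher and 572 lower from 1 to 10 CPM, and 128 higher and 402 lower at 10 CPM or more. The median log2 difference was 0.25, 0.11 and -0.27 in these classes. DESeq2 called 394 (240 higher, 154 lower), 89 of them at 10 CPM or more (37 higher, 52 lower), and limma voom called 3. The median SE of the log2 difference was 1.35 over all tested identifiers, 0.91 at 10 CPM or more and 0.33 at 1000 CPM or more. A call against uncultured cells on one day and not on the other is no measure of a difference between the days.

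Experiments 3 and 5 also held uncultured and flat libraries, 12 each over all of their flat days, and shared no library with these 9. Each table was fitted alone. In the flat 3 d comparison the calls of 10 CPM or more recurred there at higher shares than those of the lower classes. All identifiers of that class were also called higher there more often than those of the lower classes. The shares alone therefore do not rank the classes. Of the 395 higher calls of 10 CPM or more, 387 were tested in experiment 3 and 176 (45.5%) were called higher there, where 33.6% of all identifiers of that class were. In experiment 5, 214 of 389 tested (55.0%) were called higher, where 5.90% of the class were. For experiment 3, 8 were called in the opposite direction, and for experiment 5, 0. The 189 lower calls recurred as 151 (79.9%) in experiment 3, against 24.0% of the class, and as 96 (50.8%) in experiment 5, against 3.69% of the class. Taken as a share of the calls of that class and direction in the other table, the shared ones were 7.94% of the higher and 9.54% of the lower calls of experiment 3, and 55.0% and 39.5% of those of experiment 5. The median log2 fold change of the 189 was -1.86 in experiment 3 and -1.77 in experiment 5, and that of the higher calls 0.78 and 1.89.

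The scarce higher calls recurred little. Of the 2642 higher calls below 1 CPM at 3 d, 626 passed the expression filter of experiment 3, and 76 of these (12.1%) were called higher and 28 lower, where 9.35% of the class were called higher. In experiment 5, 1336 passed the filter and 11 (0.823%) were called higher, where 0.213% of the class were. Their median log2 fold change was 0.59 in experiment 3 and 0 in experiment 5, against -0.34 and -0.78 for the class. A positive change was seen for 66.6% of them in experiment 3, against 43.4% of the class. In experiment 5 it was 41.7%, against 33.9%. Whether the median of 0 stands for no change or for identifiers without counts in both groups was not tested. The 111 lower calls below 1 CPM recurred as 53 of 92 (57.6%) in experiment 3, where 19.1% of the class were lower, and as 0 of 91 in experiment 5, where 0.176% were. From 1 to 10 CPM the higher calls recurred as 51 of 405 (12.6%) in experiment 3, no more often than the 13.1% of the class, and as 75 of 523 (14.3%) in experiment 5, against 1.77%. The lower calls of that class recurred as 191 of 245 (78.0%) in experiment 3, against 28.7%, and as 16 of 247 (6.48%) in experiment 5, against 1.28%. In the 1 to 10 CPM class the shared calls were 5.40% of the higher and 9.21% of the lower calls of that class in experiment 3, and 56.4% and 16.7% in experiment 5. Below 1 CPM they were 15.0% and 5.11% in experiment 3, and 64.7% of the 17 higher and 0% of the 14 lower calls in experiment 5.

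**Figure D5:**
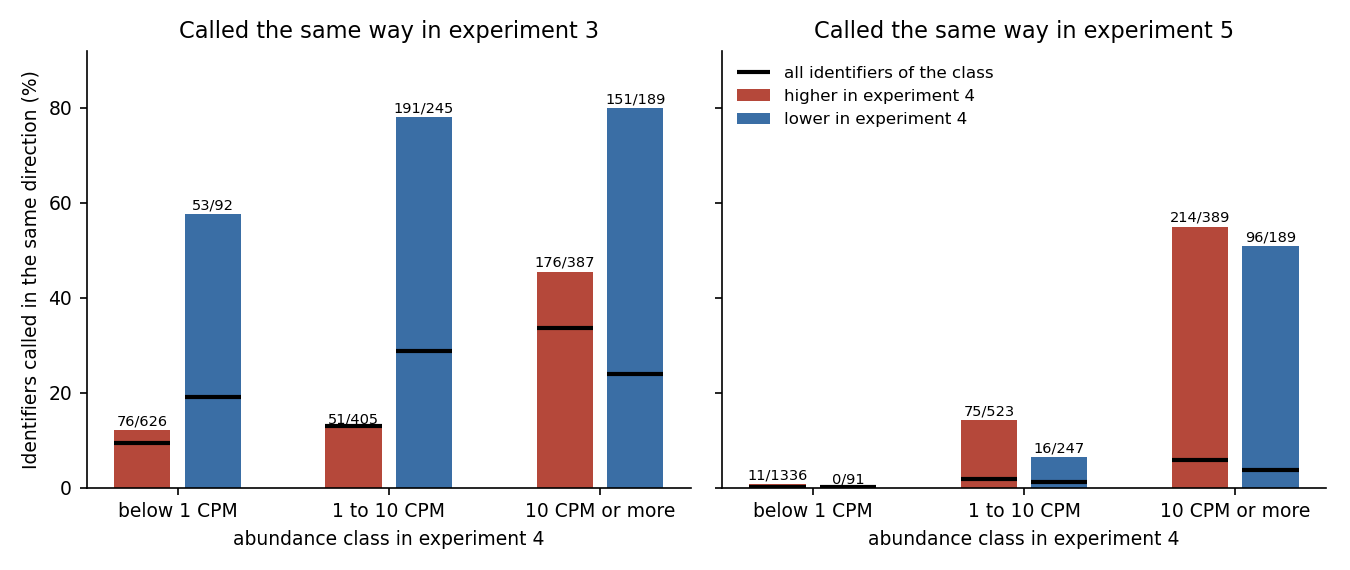
Share (%) of the flat 3 d calls of experiment 4 that were called in the same direction at 3 d in experiment 3 (left) and experiment 5 (right), by abundance class, with the counts behind each bar and black lines for the share of all identifiers of the class called in that direction. In experiment 5 the shares are 55.0% and 50.8% at 10 CPM or more and 0.823% and 0% below 1 CPM.

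At 1 d the abundant calls also recurred, at lower shares in experiment 5 than at 3 d. Of the 522 higher calls of 10 CPM or more, 183 of 513 tested (35.7%) were called higher in experiment 3, where 22.6% of the class were, and 42 of 517 (8.12%) in experiment 5, where 1.37% were. Of the 140 lower calls, 88 (62.9%) were called lower in experiment 3, where 21.5% of the class were, and 22 (15.7%) in experiment 5, where 0.926% were. In experiment 3, 11 of the higher and 11 of the lower calls went the opposite way, and in experiment 5, 0 did. The shared calls were 12.3% of the higher and 6.23% of the lower calls of the class in experiment 3, and 46.7% and 36.1% in experiment 5. Over all identifiers tested in both tables, Pearson's r of the log2 fold changes at 3 d was 0.376, 0.441 and 0.486 with experiment 3 (5434, 7229 and 6586 identifiers, from the lowest class to the highest). With experiment 5 it was 0.307, 0.424 and 0.668 (7964, 7516 and 6589 identifiers).

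Of the named identifiers, SMED30018614 fell at 3 d in both other experiments, with log2 fold changes of -7.83 in experiment 3 and -8.61 in experiment 5 (edgeR adjusted p = 2.62e-08 and 0.014). SMED30024204 fell in experiment 3 (-7.38, adjusted p = 1.98e-09), and had -3.47 in experiment 5 (adjusted p = 0.271). SMED30003968 and SMED30004426 rose at 3 d in experiment 5, with log2 fold changes of 7.52 (edgeR adjusted p = 0.000904) and 3.66 (adjusted p = 0.0135). At 1 d there they had 5.07 and 1.67 and were not called (edgeR adjusted p = 0.103 and 0.5). These identifiers and SMED30005897, all higher in flat culture here, did not pass the expression filter of experiment 3 and were not tested there. SMED30032887 rose at 3 d in both, with 0.91 in experiment 3 and 1.30 in experiment 5 (edgeR adjusted p = 0.0065 and 7.02e-06). SMED30031540, at 0 counts in all flat 1 d libraries here, fell in experiment 3 at 1 d (-3.08, edgeR adjusted p = 0.0451) and at 3 d (-8.42, adjusted p = 0.000677). In experiment 5 it had -6.48 at 1 d (edgeR adjusted p = 0.416) and -9.73 at 3 d (adjusted p = 0.0911). SMED30005897, high in 1 library here, had 0.97 at 1 d in experiment 5 (edgeR adjusted p = 0.981). SMED30035881 fell in experiment 3 at 1 d (-1.52, edgeR adjusted p = 0.0064) and at 3 d (-1.30, adjusted p = 0.0128), and had -0.79 and -1.74 in experiment 5 (adjusted p = 0.953 and 0.514).

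The lowest class of the other tables differed in size and direction. In experiment 3 at 3 d, 1987 of 7673 identifiers below 1 CPM in that table were called (25.9%), 367 higher and 1620 lower. In experiment 5, 73 of 11473 were called (0.636%), 54 higher and 19 lower. The number of detected identifiers was lower in flat than in uncultured libraries in both. Brought to one depth common to the libraries of the 3 tables, the flat 3 d libraries of experiment 4 had 28646, 30835 and 24518 detected identifiers, against 21173, 21120 and 21693 in its uncultured libraries. Those of experiment 3 had 20061, 19508 and 22486, against 27119, 26711 and 27050 uncultured, and those of experiment 5 had 15581, 15676 and 15914, against 22220, 21526 and 21987 uncultured. An exact permutation test of the difference, with flat and uncultured libraries permuted within each experiment, gave p = 0.005 against each (adjusted p = 0.01). This is the smallest p it allows, and opposite separation of all libraries fixes it there. Its null is no change in either experiment, not an equal change in both. The share held by SMED30032887 grew by 19.4 percentage points in experiment 4 and 18.0 in experiment 5 (exact permutation p = 0.91 for the difference) and by 4.05 in experiment 3 (exact permutation p = 0.1). Depth, detection and the replicate spread moved together with the flat group in experiment 4, and their part in the calls below 1 CPM was not tested.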

How the data were processed

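RNA of 9 libraries was analysed, with the other 12 of experiment 4 in the same fit and 56 of experiments 3 and 5 for comparison. The authors deposited 1 table per experiment with 36035 identifiers: whole counts for experiments 4 and 5, and estimated counts, seen as values that are not whole, for experiment 3. Neither was normalized, judged from totals that differ between libraries. The submitters' processing notes name kallisto 0.46.2 and R 4.0.5 without their roles. The transcriptome was not given in the sources used here, nor were annotation and build.

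Estimated counts were rounded. In R 4.3.3, identifiers were kept by the default filter of edgeR 4.0.16 on the 7 groups, scaled with TMM and fitted with 1 mean per group over 21 libraries (14 residual degrees of freedom). The two-sided quasi-likelihood F test was adjusted by Benjamini-Hochberg over all identifiers tested, at a threshold of 0.05. SE was taken as the size of the log2 fold change over the root of the F statistic. CPM was made with edgeR from effective library sizes, and log2 CPM used a prior count of 2. Detection at equal depth is the expected number of identifiers seen after thinning, computed without random draws. Library measures were compared with exact permutation tests, 15 of them adjusted together. The fit was run on simulated data that gave each identifier the same spread in all groups, unlike the flat and uncultured libraries here. That run cannot show how unequal spread affects the calls.

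Named identifiers were, for each comparison, the 2 highest and the 2 lowest log2 fold changes among calls of 10 CPM or more that did not overlap between groups and were called in each of the leave-one-out fits, plus the most abundant identifier. The members, classes and lists were chosen with earlier results of these data known. Marker lists for neoblasts, progeny, epidermis, neurons, muscle, gut, protonephridia, parenchyma and stress matched 0 identifiers. Alternatives were RLE scaling, DESeq2 1.42.0, voom in limma 3.58.1, other filters, fits of fewer groups, thinned counts, the 4 most abundant identifiers left out, a replicate block, other classes and each library left out. No 2 libraries of a group agreed within sampling noise (chi-square per degree of freedom from 101 to 229).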

Additional observations from a re-analysis of the deposited data

Results flagged for a closer look

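The change in detected identifiers with flat culture differed between experiments. At one common depth, flat 3 d libraries minus uncultured libraries gave 6671 more detected identifiers in experiment 4, whereas the difference was -6275 in experiment 3 and -6187 in experiment 5. It was picked out because the effect of the same contrast had opposite signs, with every flat 3 d library of experiment 4 above its uncultured libraries and every one of experiments 3 and 5 below theirs. The exact permutation test gave p = 0.005 against each (adjusted p = 0.01). That value was fixed by the separation for which the result was picked, so it adds no support. The tables were made separately, and the cause was not tested.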

How the results depend on the processing

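Leaving out each of the 9 libraries in turn gave 662 to 4533 calls at 1 d and 667 to 4761 at 3 d, and 298 to 632 and 290 to 582 at 10 CPM or more; the filter then kept more identifiers. The low ends came without uncultured replicate 2. Fits of only the 2 groups compared gave 1674 at 1 d and 932 of 10 CPM or more at 3 d, with 17339 and 18429 identifiers tested. The fit of the 9 libraries gave 2577 at 3 d, with 20650 tested. Thinning all 21 libraries to 6775383 counts, with 17502 identifiers tested, gave 2154 at 1 d and 1774 at 3 d. DESeq2 gave 6926 at 1 d (1067 of 10 CPM or more) and 6475 at 3 d, and voom 1064 of 10 CPM or more at 1 d, 9688 at 3 d and 1482 of 10 CPM or more there. Without the 3 flat libraries of high detection there were 1056 calls at 1 d (409 of 10 CPM or more) and 490 at 3 d (250). Flat 3 d against flat 1 d gave 1 with RLE, at 10 CPM or more, 4 with only identifiers of 10 CPM or more fitted, 394 with DESeq2 (89 of 10 CPM or more) and 3 with voom. A replicate block gave 3697 and 3717 calls, 627 and 572 of them at 10 CPM or more, and 0 between the days; from 1 to 10 CPM at 1 d the block left 478 higher and 480 lower. Deviations of same-numbered libraries from their group means correlated between -0.163 and 0.0804, and those of differently numbered libraries between -0.0792 and 0.149. The check showed no pairing by replicate number, but with 3 libraries per group and a wide flat spread it cannot exclude pairing. The share of the 4 most abundant identifiers, -1.51 points at 1 d against uncultured, reversed to 0.157 with 10 identifiers. Of the calls, totals and shares that answer a comparison, 127 values under an alternative counted as kept, 37 as moved and 1 as reversed. Counts of calls were kept within 1.5 times of the main count, whichever way higher and lower calls split. Voom at 3 d and 10 CPM or more, with 562 higher and 920 lower against 395 and 189, thus counts as moved only. Counts of 0 in both fits between the days count as kept. Library totals and shares were kept where direction and side of the threshold held. For library totals and shares, so few libraries cannot give p below 0.05, so these values could only keep or reverse direction. The gain in detected identifiers at 1 d, 4795, thus counts as kept at 438 with at least 5 counts required. The cause of the differences between alternatives was not tested. Depth limits the lowest class, where 3 counts in a library were up to 0.178 CPM.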
